A study of Mus musculus with 6 samples.

Results

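The 7 genes of the caveolar coat, the caveolins Cav1, Cav2 and Cav3 and the cavins Cavin1, Cavin2, Cavin3 and Cavin4, were followed in the heart-forming region of mouse embryos with and without Hand2 in the anterior second heart field. They are 7 of the 25888 genes in the table and were chosen by name, as members of both gene families. The families were taken up with results of this contrast in view, in which Cavin2 was among the genes lower in mutants, so the differences between the groups given for them are a description and not independent evidence. Outflow tract and anterior dorsal pericardial wall were dissected at embryonic day 9.5 from C57BL/6 embryos and pooled before RNA extraction, and each group has 3 libraries, called controls 1, 2 and 3 and mutants 1, 2 and 3. The mutants were Hand2flox/flox; Mef2c-AHF-Cre, in which the Cre is driven by an enhancer of the anterior second heart field, so cells of other lineages in the same pools keep intact Hand2. The labels give the other group only as control, without its alleles, and neither the embryos in a pool nor their litters are given in the sources used here. P-values therefore measure the spread between these libraries, which may be technical.

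Caveolae are small flask-shaped pits of the plasma membrane, abundant in endothelium, smooth muscle and striated muscle, where they buffer membrane tension and gather receptors and channels. Caveolins insert into the membrane and oligomerise into the coat, and cavins assemble around them from the cytosol, with Cavin1 needed to form the pit. Cav1 and its partner Cav2 serve most cell types, whereas Cav3 and Cavin4 belong to striated muscle.

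Levels are FPKM, fragments per kilobase of transcript scaled to the size of the library, so genes can be set side by side per length. The depth by which the authors divided, read from the steps between low FPKM values, was 22975222 to 31065423 fragments per library. FPKM summed over all genes to 417592 in control 1, 377157 in mutant 1 and 314462 to 328574 in the other libraries. The main fit did not rescale these sums. Hand2 itself had 87.3 ± 26.3 FPKM in controls, against 24.9 ± 8.69 in mutants (SD, n = 3 each), and the groups did not overlap. Its limma adjusted p was 0.109, or 0.00279 once libraries of the same number were paired. Markers of the labelled tissue were present in all 6 libraries, with Isl1 between 14.6 and 21.4 FPKM and Nkx2-5 between 190.2 and 322. They were not all equal between the groups. Isl1 had 18.0 to 21.4 FPKM in controls and 14.6 to 17.0 in mutants, without overlap. Tbx1 and Sema3c, also of this tissue, were higher in mutants without overlap. Control library 3 stood apart by its yolk sac and liver transcripts, whose 6 listed genes summed to 571 FPKM there and to at most 5.02 elsewhere.

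The transcripts of the coat were very unequal in the controls. Cavin3, a cavin that binds protein kinase C delta, had the highest mean, 54.0 ± 17.2 FPKM, and Cavin1 had 50.7 ± 8.72 (SD, n = 3 each). These neighbours did not differ beyond their spread, since Cavin3 exceeded Cavin1 in only 1 of the 3 control libraries. Cavin2, which promotes membrane curvature, followed at 6.08 ± 0.30 FPKM and Cav3 at 3.39 ± 1.66, and the control values of each of these lay wholly below those of the gene before it. Cavin4, Cav1 and Cav2 had 0.83 ± 0.15, 0.80 ± 0.21 and 0.48 ± 0.06 FPKM. The control values of Cavin4 and Cav1 overlapped, and all 3 Cav2 values lay below those of Cav1. In the mutants Cavin3 exceeded Cavin1 in all 3 libraries, and Cavin4 at 1.09 ± 0.14, Cav3 at 1.04 ± 0.75, Cav1 at 0.75 ± 0.28 and Cav2 at 0.44 ± 0.05 FPKM came after Cavin2, the values of each overlapping those of the next.

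Per length, the cavins summed to far more than the caveolins. The 4 cavins summed to 134, 87.0 and 114 FPKM in controls 1, 2 and 3, and the 3 caveolins to 6.50, 2.91 and 4.59. In mutants 1, 2 and 3 the cavins summed to 73.9, 57.8 and 65.0 FPKM, and the caveolins to 3.28, 1.39 and 2.00. The ratio of the sums was 25.1 ± 4.64 in controls, against 32.1 ± 9.51 in mutants (SD, n = 3 each), and its ranges overlapped. The cavin sums include Cavin3, whose reads cannot be assigned to it alone, as described below. Against the 12650 genes with a mean of at least 1 FPKM over the 6 libraries, Cavin3 lay above 89.7% of genes by mean level and Cavin1 above 87.3%, whereas Cavin2 lay above 33.4% and Cav3 above 16.6%. Cav1, Cav2 and Cavin4 had means under 1 FPKM and were not among them. Endothelial transcripts were present in the same libraries, with Pecam1 at 8.85 ± 0.94 and Plvap, a protein of endothelial diaphragms, at 92.1 ± 17.9 FPKM in controls (SD, n = 3 each).

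**Figure D1:**
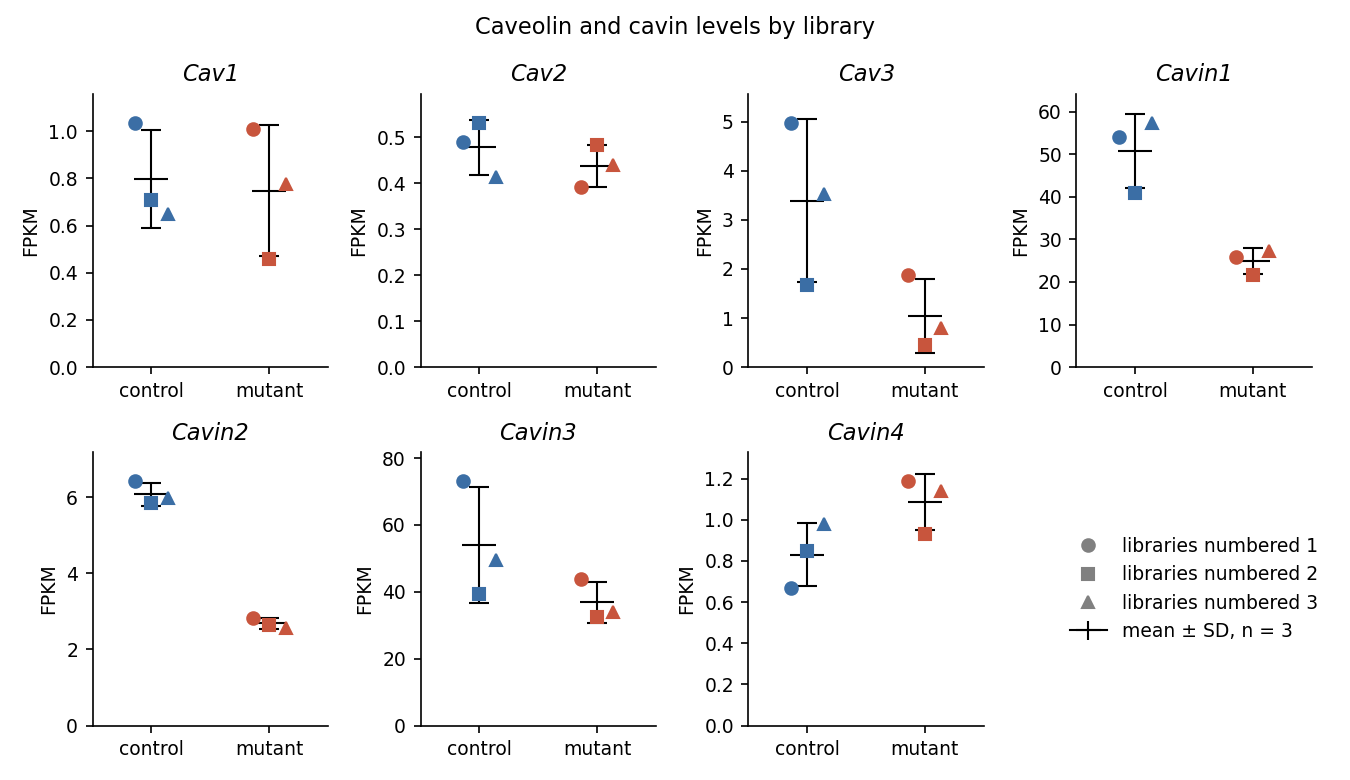
FPKM of the 7 genes (y axis of each panel, linear and from 0) in the 3 control and 3 mutant libraries (x axis), with the replicate number as marker shape and the mean ± SD (n = 3) in black. Cavin1 and Cavin2 values do not overlap between the groups, those of Cav3 and Cavin3 overlap through control library 2 and mutant library 1, and Cav1 and Cav2 are near 1 FPKM or lower in both groups.

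The cavins shared by many cell types had lower means in the mutants, and Cavin1 and Cavin2 did so without overlap. Cavin1 (ENSMUSG00000004044, GRCm38 chromosome 11 from 100956733 to 100970887, minus strand, 3 exon blocks) had 53.9, 40.9 and 57.4 FPKM in controls 1, 2 and 3, against 26.0, 21.6 and 27.3 in mutants 1, 2 and 3. Every mutant value lay below every control value, by a wide gap between 27.3 and 40.9. These values rest on 4503 to 5536 reads in controls and 2070 to 2681 in mutants. On the log2(FPKM + 1) scale the mutants differed by -0.99 (SE 0.15). The limma adjusted p was 0.103, and 0.00243 when the replicate number entered the fit as a block. In bulk tissue, fewer cells of a type and less RNA per cell cannot be told apart, for this gene and for those that follow.

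Cavin2 (ENSMUSG00000045954, GRCm38 chromosome 1 from 51289126 to 51302960, plus strand, 2 exon blocks) had the smallest spread relative to its mean in both groups. It had 6.41, 5.84 and 5.99 FPKM in controls 1, 2 and 3, against 2.84, 2.65 and 2.57 in mutants 1, 2 and 3, from 456 to 554 and 199 to 216 reads. The libraries of a group differed little from each other, and the groups lay far apart. The log2 fold change was -0.94 (SE 0.08), and the limma adjusted p was 0.0287 without the block and 0.00244 with it. The unblocked call was lost without any 1 of the 6 libraries, the adjusted p then being 0.0777 to 0.264. It was also lost with FPKM rescaled to equal sums (0.0808) and without the filter on low values (0.059), and the blocked call was lost without that filter (0.0564).

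Cavin3 (ENSMUSG00000037060, GRCm38 chromosome 7 from 105480083 to 105482300, minus strand, 2 exon blocks) had the largest SD in FPKM among the controls. It had 73.0, 39.4 and 49.6 FPKM in controls 1, 2 and 3, against 43.9, 32.6 and 33.9 in mutants 1, 2 and 3. Mutant library 1 lay above control library 2, so the groups overlapped, while each mutant library lay below the control of its own number. The log2 fold change, -0.51 (SE 0.23), had a limma adjusted p of 0.772 unblocked and 0.0384 blocked. The blocked call was lost without both libraries numbered 1 (adjusted p = 0.0763) or both numbered 3 (0.11), and without the filter on low values (0.182). The annotated gene shares 374 exonic bases with Gm45667 on the other strand, and its counted length was not that of the annotation used here. No strand setting is given, so its reads cannot be assigned to Cavin3 alone.

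The striated muscle cavin did not have a lower mutant mean. Cavin4 (ENSMUSG00000028348, GRCm38 chromosome 4 from 48663514 to 48673502, plus strand, 2 exon blocks), also called Murc, had 0.67, 0.85 and 0.98 FPKM in controls 1, 2 and 3, against 1.19, 0.93 and 1.14 in mutants 1, 2 and 3. The groups overlapped, and each mutant library lay above the control of its own number. The difference of the log2(FPKM + 1) means was 0.19 in favour of the mutants, on 32 to 64 reads a library. With a mean of 0.96 FPKM it missed the filter of 1, and in the limma fit without a filter its adjusted p was 0.822, and 0.472 with the block. Tmeff1, which ends 383 bases before it on the same strand, had 60.9 ± 3.40 FPKM in controls, and in mutants 64.5 ± 1.46.

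Of the caveolins, only the muscle gene Cav3 (ENSMUSG00000062694, GRCm38 chromosome 6 from 112459505 to 112472872, plus strand, 2 exon blocks) passed the filter. It had 4.98, 1.67 and 3.53 FPKM in controls 1, 2 and 3, against 1.88, 0.45 and 0.79 in mutants 1, 2 and 3. Mutant library 1 lay just above control library 2, and the 2 other mutant libraries lay below all controls. The reads behind these values were 134, 60 and 110 in controls and 50, 14 and 25 in mutants. The log2 fold change of -1.09 (SE 0.35), which the added 1 makes smaller for a gene this low, had a limma adjusted p of 0.515 unblocked and 0.00841 blocked. The blocked call was lost without the filter on low values (adjusted p = 0.113). The mutant mean of 1.04 FPKM was 30.7% of the control mean of 3.39, the lowest such share in the family.

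Cav1 and Cav2, which are neighbours on chromosome 6 with 17220 bases between them, differed between the groups by less than their spread. Cav1 (ENSMUSG00000007655, GRCm38 chromosome 6 from 17306335 to 17341452, plus strand) had 1.04, 0.71 and 0.65 FPKM in controls 1, 2 and 3, against 1.01, 0.46 and 0.78 in mutants 1, 2 and 3. Cav2 (ENSMUSG00000000058, GRCm38 chromosome 6 from 17281185 to 17289115, plus strand) had 0.49, 0.53 and 0.41 FPKM in controls 1, 2 and 3, against 0.39, 0.48 and 0.44 in mutants 1, 2 and 3. The values of both genes overlapped between the groups. The reads were 42 to 83 for Cav1 and 30 to 55 for Cav2, which limits how small a difference was detectable at this depth. In the limma fit without a filter the log2 fold changes were -0.05 (SE 0.15) and -0.04 (SE 0.06), with adjusted p-values of 1.00 and 0.983 without the block and 0.864 and 0.786 with it.

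Of the 7 genes 4 passed the filter of a mean of 1 FPKM. By limma without the block 1 of these 4 was called lower, Cavin2, and none higher, where 0.15% of the 12650 genes tested were called lower and 0.0237% higher. At an unadjusted p under 0.05 there were 3 lower and 0 higher, where 546 of the 12650 genes were lower and 329 higher. With the replicate block all 4 were called lower, where 3.7% of the genes tested were called lower and 1.42% higher. The groups did not overlap for Cavin1 and Cavin2, and this held in the direction of lower mutants for 6.85% of the genes tested, and with higher mutants for 5.44%. Nothing is read from these counts, because the contrast was in view when the families were chosen.

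Set against the control of its own number, each mutant library had a similar part of the Cavin1 and Cavin2 levels. For Cavin2 the mutant FPKM was 44.2%, 45.3% and 43.0% of the control in libraries numbered 1 to 3. For Cavin1 it was 48.1%, 52.9% and 47.7%. The percentages were higher for Cavin3, at 60.1%, 82.7% and 68.4%, and lower for Cav3, at 37.8%, 27.1% and 22.4%. For Cavin4 the values were 177%, 109.8% and 117%, all above the control, and those of Cav1 (97.6%, 64.3% and 119.7%) and Cav2 (80.0%, 90.9% and 106%) lay on both sides of it. These percentages rest on pairing libraries by number, which was taken from correlations in the data and is not stated by the labels.

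**Figure D2:**
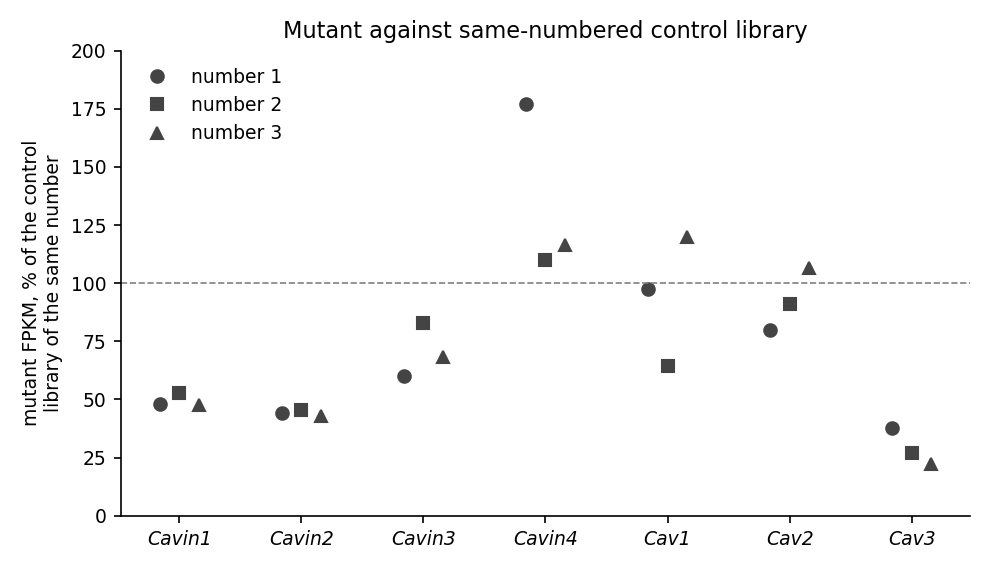
FPKM of each mutant library as a percentage of the control library of the same number (y axis, linear), for the 7 genes (x axis), with the number as marker shape and a dashed line at 100%. Cavin1 and Cavin2 lie between 43.0% and 52.9%, Cav3 lies between 22.4% and 37.8%, and the 3 Cavin4 points lie above 100%.

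Within the cavins the shares of Cavin1 and Cavin3 overlapped between the groups, and those of Cavin2 and Cavin4 did not. Cavin3 enters every cavin sum, so all these shares carry the limit given above for its reads and counted length. The FPKM of Cavin4 itself overlapped between the groups. Cavin1 made up 40.2%, 47.0% and 50.4% of the summed cavin FPKM in controls 1, 2 and 3, against 35.1%, 37.4% and 42.1% in mutants 1, 2 and 3. Cavin3 made up 47.8% ± 5.87 of the sum in controls, against 56.0% ± 3.62 in mutants (SD, n = 3 each). Set against the control of its own number, the share of Cavin1 was lower and that of Cavin3 higher in all 3 mutant libraries. The share of Cavin2 was 4.78% to 6.71% in controls and 3.84% to 4.58% in mutants, and that of Cavin4 was 0.50% to 0.97% and 1.61% to 1.75%. There were 12.2 ± 1.95 Cavin2 per 100 Cavin1 in controls and 10.9 ± 1.42 in mutants, with overlapping values, and each mutant lay below the control of its own number. Among caveolins, Cav3 made up 76.5%, 57.4% and 76.9% of the sum in controls 1, 2 and 3, against 57.3%, 32.5% and 39.4% in mutants 1, 2 and 3. The highest mutant share was just under the lowest control share. Cav1 plus Cav2 made up the rest, and the mean share of Cav1 was 18.1% in controls and 34.1% in mutants while its own FPKM overlapped between the groups.

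**Figure D3:**
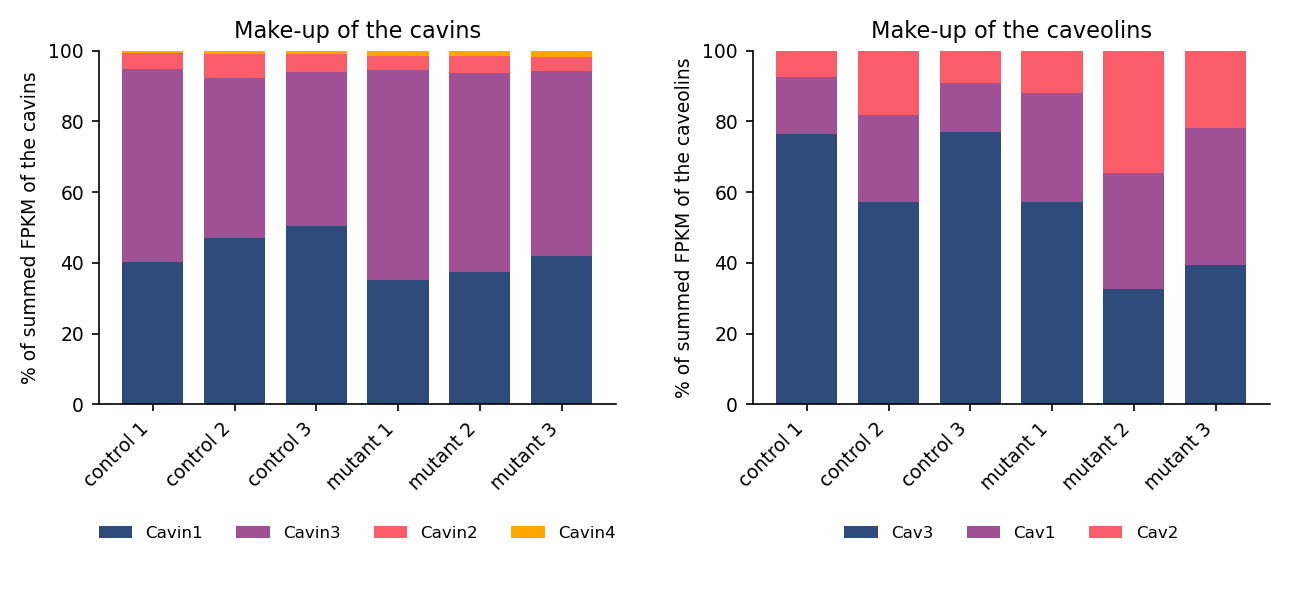
Share of each cavin in the summed FPKM of the 4 cavins (left) and of each caveolin in the summed FPKM of the 3 caveolins (right), in percent (y axis) for each of the 6 libraries (x axis). Cavin1 and Cavin3 fill over 90% of every cavin bar, and the Cav3 part is 57.4% to 76.9% in controls and 32.5% to 57.3% in mutants.

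The sequences before the start sites are shown for Cavin2 and Cav3, whose mutant levels were the smallest parts of the control, and for Cavin4, whose mutant mean was higher, since Hand2 belongs to the basic helix-loop-helix factors, which bind E-boxes with the letters CANNTG. Promoters of 6 of the 7 genes were matched in RefSeq (GRCm38.p6), all but Cavin3. The 250 bases upstream of the start are printed 5′ to 3′ on the strand of the gene, with each CANNTG in capitals, for Cavin2 (chr1:51288876-51289125, plus strand), Cav3 (chr6:112459255-112459504, plus strand) and Cavin4 (chr4:48663264-48663513, plus strand).
Cavin2: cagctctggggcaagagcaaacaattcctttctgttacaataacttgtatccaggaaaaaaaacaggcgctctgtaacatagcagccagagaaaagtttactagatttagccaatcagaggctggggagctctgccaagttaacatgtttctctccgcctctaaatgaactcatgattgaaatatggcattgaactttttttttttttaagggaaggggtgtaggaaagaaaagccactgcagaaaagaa
Cav3: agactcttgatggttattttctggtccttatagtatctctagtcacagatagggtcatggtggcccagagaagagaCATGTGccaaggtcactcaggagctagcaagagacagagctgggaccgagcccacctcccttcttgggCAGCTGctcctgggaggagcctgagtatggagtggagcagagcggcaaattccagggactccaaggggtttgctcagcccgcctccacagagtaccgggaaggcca
Cavin4: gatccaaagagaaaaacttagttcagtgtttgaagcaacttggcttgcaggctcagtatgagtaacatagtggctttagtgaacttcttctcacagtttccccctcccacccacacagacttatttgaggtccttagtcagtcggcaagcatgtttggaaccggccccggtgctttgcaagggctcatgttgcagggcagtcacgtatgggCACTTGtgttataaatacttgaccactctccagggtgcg

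The letters CANNTG, which read the same on both strands, did not occur in the windows of Cavin1 and Cavin2. The RefSeq window of Cavin1 lies inside the first exon of its GENCODE transcript, so it is counted here but not shown. They occurred 2 times in that of Cav3, as CATGTG at 174 and CAGCTG at 106 bases before the start, and 1 time in that of Cavin4, as CACTTG at 39 bases. Cav1 held 1 match and Cav2 held 2. Of 27025 mouse promoter windows of the same length 66.0% held at least 1 match. The variant CATCTG, which is contained in CANNTG, the letters GATAA and the CArG box, each searched on both strands, did not occur in any of the 6 windows, against 14.5%, 23.0% and 1.40% of all windows. GC content was 67.6% for Cavin1 and 40.4% for Cavin2, around a median of 52% over all windows. Cavin1 and Cavin2 thus lay on opposite sides of the median in base composition, and nothing about binding follows from a match or its lack in so short a window.

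Of the protein-coding genes beside the members on the chromosome, none that passed the filter was past the threshold in either fit. Those under the filter were not tested in these fits. Beside Cavin1, Stat3 had 3.26 ± 0.53 FPKM in controls, against 2.90 ± 0.37 in mutants, and Atp6v0a1 15.9 ± 2.13 and 13.5 ± 0.52 (SD, n = 3 each; limma adjusted p = 0.998 and 0.81 without the block, 0.308 and 0.118 with it). The mutant values of Atp6v0a1 all lay below its control values, and those of Stat3 overlapped them. Beside Cavin2, Nabp1 had 3.14 ± 0.61 and 2.29 ± 0.54 (adjusted p = 0.81 by limma, 0.0864 with the block), and Tmeff2 was under the filter at 0.11 and 0.16. Oxtr, 811 bases from Cav3, averaged 0.03 FPKM in controls and 0.04 in mutants. Beside Cavin3, Smpd1 had 15.9 ± 2.90 and 13.5 ± 0.47 FPKM, with overlap. Cckbr, on the other side and under the filter, had 0.09 and 0.23 FPKM, without overlap. These genes were chosen by position after the members' values had been seen.

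Genes that work with the caveolar coat but lie outside the families were grouped in 5 lists, of whose 56 members 49 passed the filter. None of them was called in either direction by limma without the block. At an unadjusted p under 0.05 there were 3 lower and 0 higher, where 546 and 329 of the 12650 genes tested were lower and higher. With the block 2 were called lower, Dysf and Adcy5, and 0 higher, a share near the 3.7% and 1.42% of all genes tested. Their median log2 fold change was -0.04, beside -0.01 for all 12650 genes tested.

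Of the 8 of 10 listed genes past the filter for proteins that bend the membrane at the neck of the pit, none was called in either fit, with a median of -0.11. Pacsin2, an F-BAR protein that shapes caveolae, had 27.5 ± 1.83 FPKM in controls, against 23.3 ± 1.04 in mutants (SD, n = 3 each), without overlap, and a limma adjusted p of 0.679, or 0.0905 with the block. Ehd2, the ATPase that holds caveolae at the surface, had 7.96 ± 1.03 and 6.74 ± 0.75 FPKM, and the dynamin gene Dnm1 7.74 ± 1.65 and 9.13 ± 1.89. The values of both overlapped between the groups.

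Among kinases, tethers and repair proteins, 1 of 7 genes past the filter was called lower with the block and none without it, with a median of 0.05. It was Dysf, the membrane repair protein dysferlin, with 7.27, 7.25 and 8.04 FPKM in controls 1, 2 and 3, against 5.42, 5.36 and 5.98 in mutants 1, 2 and 3. The groups did not overlap, and the log2 fold change was -0.37 (SE 0.09; limma adjusted p = 0.322 without the block and 0.0196 with it). The blocked call was lost without the pair numbered 1, 2 or 3, and without the filter (adjusted p = 0.115). The tyrosine kinase genes Abl1 (32.2 and 36.8 FPKM) and Src (24.5 and 27.3), whose products act on caveolae, were past the threshold in neither fit. Both were higher in mutants without overlap, Src only narrowly (lowest mutant 25.7, highest control 25.5), where this held for 5.44% of all genes tested. Flotillins and related scaffolds, which form other membrane domains, had none of 7 past the filter called in either fit and a median of -0.04. Flot2 had 37.3 and 33.7 FPKM, Stom 5.86 and 5.25, and Erlin1 4.54 and 4.33.

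Of the 15 receptors, enzymes and channels known from caveolae that passed the filter, 1 was called lower with the block and none without it, with a median of -0.06. Adcy5, an adenylyl cyclase of heart muscle, had 8.78, 8.23 and 11.2 FPKM in controls 1, 2 and 3, against 5.93, 4.80 and 5.98 in mutants 1, 2 and 3. The groups did not overlap, and the log2 fold change was -0.66 (SE 0.13; limma adjusted p = 0.221 without the block and 0.0111 with it). The blocked call was lost without both libraries numbered 2, and without the filter (adjusted p = 0.116). The lipoprotein receptor gene Scarb1 (8.48 and 6.97 FPKM) and the calcium channel gene Cacna1c (4.42 and 3.23) were past the threshold in neither fit. Genes of cholesterol and sphingolipid supply, the lipids caveolae are rich in, had none of 12 called in either fit and a median of -0.02. Sptlc2, of sphingolipid synthesis, had 7.72 and 6.83 FPKM, Sgms1 3.57 and 2.90, and Npc1, a cholesterol transporter, 4.75 and 5.32.

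Markers of the cell types that carry caveolae were in part lower when the block was used, where 3.7% of all genes tested were called lower and, without it, 546 of 12650 were lower at an unadjusted p under 0.05. Of 10 heart muscle markers none was called by limma without the block (5 lower and 0 higher at an unadjusted p under 0.05) and 7 were called lower with it, with a median log2 fold change of -0.67. Their summed level was 2974 to 5080 FPKM in controls and 2143 to 3335 in mutants. Of the 7 of 8 smooth muscle markers past the filter none was called without the block (5 lower and 0 higher unadjusted) and 6 with it, with a median of -0.68 and sums over all 8 of 1679 to 2491 and 1136 to 1424 FPKM. The gene under the filter, Myh11, had 0.78 FPKM in controls and 0.25 in mutants. Whether this list marks cells apart from heart muscle here was not tested. Of 10 endothelial markers none was called without the block (4 lower and 0 higher unadjusted) and 4 with it, with a median of -0.26 and sums of 211 to 269 and 183 to 214 FPKM. Of these 3 lists, only the smooth muscle sums did not overlap between the groups. The heart muscle sum was mostly Myl7, at 1862 to 3560 FPKM in controls and 1420 to 2327 in mutants. The largest part of the smooth muscle sum was Acta2, at 1159 to 1625 FPKM in controls and 748 to 928 in mutants. That of the endothelial sum was Plvap, at 77.1 to 112 and 71.0 to 85.6 FPKM. Gene by gene, Myh7, Tnnt2, Tnni1, Actn2 and Nppa did not overlap between the groups, and Myh6, Myl7, Myl3, Ttn and Ryr2 did. Of the smooth muscle markers only Myocd overlapped. Of the endothelial markers Pecam1, Cdh5, Tek, Emcn and Esam did not overlap, and Kdr, Tie1, Cldn5, Egfl7 and Plvap did. Those without overlap were lower in mutants, where 6.85% of all genes tested were lower without overlap and 5.44% higher. None of the heart muscle, smooth muscle and endothelial markers was at 0 in any library. Second heart field and outflow tract markers summed to 338 to 472 FPKM in controls and 405 to 460 in mutants. With the block 2 of 8 were called higher, Tbx1 and Sema3c, and 1 lower, Isl1. Of all genes tested 1.42% were called higher and 3.7% lower with the block. Red cell markers summed to 3350 to 7977 FPKM in controls and 3496 to 5088 in mutants, with none of 8 called. The part of these cell types in the values of Cavin1, Cavin2, Cavin3 and Cav3 was not tested. Skeletal muscle markers were near 0, with 5 genes summing to at most 0.80 FPKM, Myod1 at 0 in control libraries 2 and 3 and Myf6 at 0 in control library 3.

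**Figure D4:**
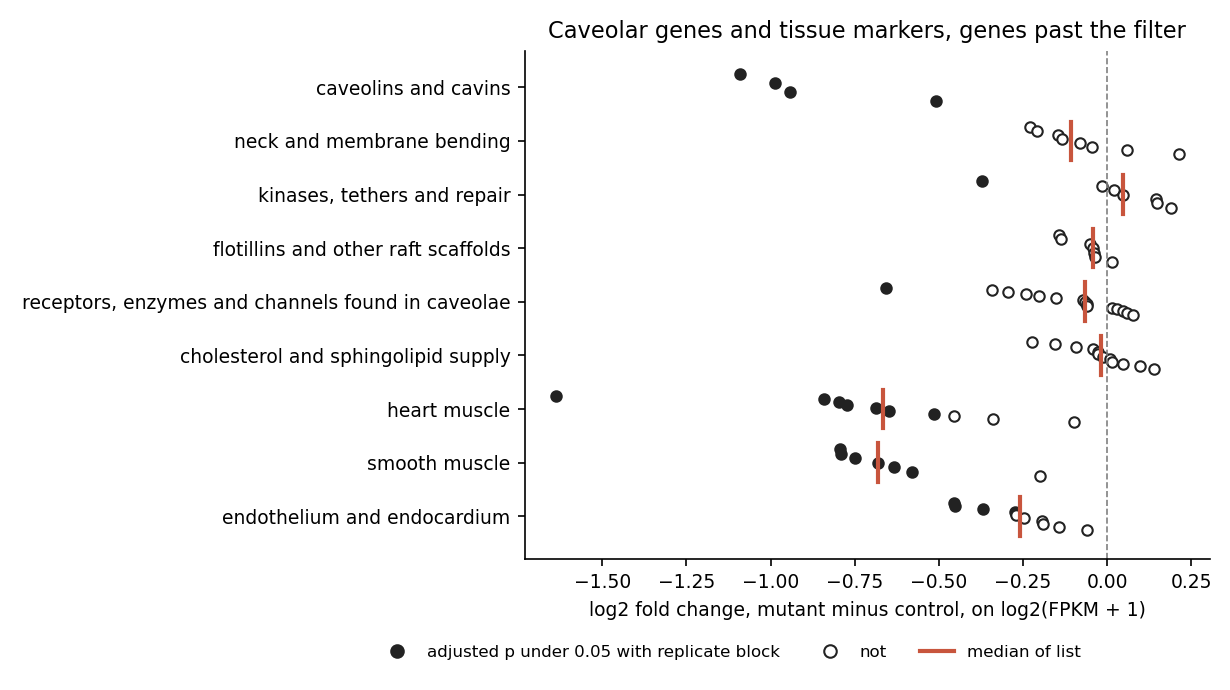
Log2 fold change, mutant minus control, on the log2(FPKM + 1) scale (x axis) of each gene past the filter in the caveolin and cavin families, the 5 lists of caveola-associated genes and 3 lists of cell type markers (y axis). Filled points have a limma adjusted p under 0.05 with the replicate block and red bars are list medians, which are -0.11 to 0.05 for the caveola-associated lists and -0.68 to -0.26 for the markers.

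The genes with the most similar profiles were found for each of the 4 members past the filter. Likeness was the root mean square difference of log2(FPKM + 1) values over the 6 libraries, each gene centred on its own mean, among 11077 named genes. The same libraries hold the contrast, so the differences of the picked genes between the groups follow from the choice and are not separate evidence. For Cavin1 the nearest were Asb2, a ubiquitin ligase subunit of muscle, at 0.05, Ociad2 at 0.06 and the LIM domain gene Lmcd1 at 0.07. Asb2 had 60.7 ± 10.2 FPKM in controls, against 28.3 ± 3.70 in mutants (SD, n = 3 each). For Cavin2 they were the laminin receptor gene Itga7 at 0.07, Radil at 0.09 and Srpk3, a kinase gene of striated muscle, at 0.10, and Itga7 had 2.16 ± 0.05 and 0.76 ± 0.08 FPKM. For Cav3 they were the troponin gene Tnni2 at 0.19, phospholamban (Pln) at 0.21 and the muscle glycolysis gene Pgam2 at 0.22, a looser match. Pln had 7.58 ± 1.84 and 2.86 ± 1.03 FPKM. For Cavin3 they were the lipase inhibitor gene G0s2 at 0.04, Baiap2l2 at 0.05 and Cend1 at 0.07, and G0s2 had 21.8 ± 7.13 and 14.4 ± 3.03 FPKM.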

How the data were processed

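RNA from pooled tissue was sequenced in 3 control and 3 mutant libraries, grouped and numbered by the sample titles. The authors deposited 1 table of FPKM values per gene and library. Bcl2fastq 2.18, STAR 2.5.1b, Cufflinks 2.2.1 and the build mm8 are named, per the submitters' processing notes. For most genes the lengths behind the values match GENCODE M21, which is on GRCm38 and not mm8. This difference was not resolved. The annotation and the strand setting were not given in the sources used here. Symbols came from a table of GENCODE M21 names, in which 129 of 25888 IDs had no match. Coordinates are on GRCm38, from GENCODE M21. Low FPKM values were whole multiples of 1 step per library and gene length. With GENCODE M21 exon lengths the values of 20421 of 25759 genes (79.3%) came out as whole reads within 0.01 in all 6 libraries. This held for every member but Cavin3, for which a whole factor stayed unresolved and no reads are given. The reads behind each other member are given beside its values, as the measure of the precision that depth allows.

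Genes whose FPKM averaged 1 or more over the 6 libraries, 12650 in all, were tested two-sided with limma 3.58.1 in R 4.3.3. Values entered as log2(FPKM + 1), variances were moderated toward a trend, and the Benjamini-Hochberg adjustment covered every gene tested, at a threshold of 0.05. The fit was tested on simulated data. Summaries and figures were made in Python 3.11.15. The members, lists and tests were chosen with earlier results of these data known. Named were the 7 members, Hand2, markers, for each list the genes called and the 3 with the smallest p, neighbours on the chromosome and the 3 nearest profiles. Genes of predicted or clone names were left out of the profiles. Genes named outside this rule are given for their values in single libraries or as background.

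Libraries of the same number deviated together from their group means over genes, with correlations of 0.73, 0.44 and 0.44 for numbers 1, 2 and 3, and by this the libraries were treated as paired. Control library 2 and mutant library 3 also had 0.31, so the pairing of numbers 2 and 3 is less sure. This pairing was read from the data, since the labels leave the meaning of the numbers unstated. Alternatives were the replicate block, pseudocount, filter, scaling, library weights, trend, voom on the recovered reads and leaving out libraries. Leaving out both libraries of a number, and the block without a filter, were added after seeing the data. Protein sequences were not used here.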

Additional observations from a re-analysis of the deposited data

How the results depend on the processing

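Cavin1, Cavin2, Cavin3 and Cav3 kept a negative log2 fold change under each of the 19 or 20 other settings that tested them. The main count was 1 member lower, 19 genes lower and 3 higher over all genes, and 0 caveola-associated genes lower or higher. With the replicate block these were 4, 468 and 180, and 2 lower. By voom on recovered reads with the replicate block they were 4, 843 and 429, and 6 lower and 1 higher. With array weights they were 3, 349 and 193, and 3 lower. Without a filter no member was called, with 3 genes lower and 5 higher by adjusted p. At an unadjusted limma p under 0.05, 3 members were lower there, where 932 of 25888 genes were lower and 835 higher. At a mean FPKM of at least 5, where Cavin2 and Cav3 were not tested, no member was called, with 11 genes lower by adjusted p. Unadjusted, 1 of the 2 members tested was lower, where 342 of 7958 genes were lower and 167 higher. With equal sums no member was called, with 9 genes lower by adjusted p. Unadjusted, 4 members were lower, where 283 of 12679 genes were lower and 343 higher. Without any 1 library 0 members were called, with 0 to 2 genes lower and 0 to 2 higher by adjusted p. Unadjusted, 2 to 4 members were then lower, where 311 to 703 genes were lower and 176 to 519 higher. With the block and both libraries of a number left out, 3 to 4 members, 246, 229 and 210 genes lower, 94, 54 and 80 higher (numbers 1, 2 and 3) and 0 to 1 caveola-associated genes lower were called. Cavin3 was the member lost without numbers 1 or 3. With the block and no filter only Cavin1 was called among the members (adjusted p = 0.0458). Adjusted p-values over all settings ranged from 9.02e-05 to 0.264 for Cavin2, 1.3e-05 to 0.519 for Cavin1, 0.00119 to 1.00 for Cav3 and 0.0043 to 1.00 for Cavin3. The 0.0043 of Cavin3 came from voom with the replicate block. That value, and the Cavin3 call among the 4 members there, rest on reads whose whole factor stayed unresolved. At a pseudocount of 0.1 the differences of Cav2 and Cavin4 went to -0.10 and 0.36 on the log2 scale. The difference of Cav1 was 0.05 without control library 1 and 0.08 without mutant library 2, against -0.05. The order of the 7 levels in controls was the same with equal sums.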
